A study of Mus musculus with 5 samples.

Results

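Small nucleolar RNAs (snoRNAs) are short RNAs of the nucleolus that guide the chemical modification and processing of ribosomal RNA. The genes described here are those whose mouse symbol starts with Snora or Snord followed by a digit and whose raw counts summed to at least 10 over the 5 libraries of the study. They were thus chosen by their summed counts and not by a difference between groups. The rule kept 59 of 141 such genes, out of 55364 gene rows in each table. They comprise 18 Snora genes, which are named as box H/ACA snoRNAs, and 41 Snord genes, named as box C/D snoRNAs. Of the other 82, 56 had no count in any library and 26 had between 1 and 8 in all. Just inside the limit were Snora81, Snord16a and Snord95 with 10 counts each, and just outside it were Snord55 with 8 and Snora9 with 7.

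Box C/D snoRNAs carry a C box near the 5′ end and a D box near the 3′ end and direct methylation of ribose. Box H/ACA snoRNAs fold into hairpins separated by an H box, end in an ACA box and direct pseudouridylation. In mammals most are cut out of introns of a host gene after splicing, many hosts being genes of ribosomal proteins or of noncoding RNAs made only to carry snoRNAs. Mature snoRNAs normally have no poly(A) tail, whereas the libraries here were made with a kit that primes on poly(A).

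The RNA came from invariant natural killer T (iNKT) cells of the liver, T cells that recognise lipids on CD1d. They were sorted by flow cytometry with a CD1d tetramer loaded with PBS57 and an antibody to TCRb. The HCC group had 3 libraries from male C57BL/6 WT mice given 25 mg/kg diethylnitrosamine (DEN) in 1 injection at 15 days of age, which bore hepatocellular carcinoma. The healthy group had 2 libraries from WT mice given PBS at 15 days of age. The age at collection is stated as between 38 and 42 weeks. Each library is described as 1 mouse, but the deposited tables of HCC 2 and HCC 3 carry the same number in their names.

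Total counts were 1718452 to 1883979 in the HCC libraries, against 2224356 and 1821863 in healthy 1 and 2. Levels are CPM, counts per 1000000 of the library's own total, and a count of 0 allows up to 3 counts, or 1.35 to 1.75 CPM (counting error only). Healthy 1 stood apart, with Pearson r across 8468 genes of 0.766 to 0.818 with the other libraries, which had r of 0.853 to 0.905 among themselves. T cell markers were present (Cd3e at 178 to 283 CPM in HCC and 187 and 246 CPM in healthy libraries), whereas Zbtb16, the factor that defines iNKT cells, had 0 to 1.65 CPM in all 5. The whole T cell and iNKT list summed to 6508 to 8718 CPM. Within it Klrb1c was uneven, with 465, 20.9 and 333 CPM in HCC 1, 2 and 3, against 382 and 5.49 CPM in healthy 1 and 2. A list of 17 hepatocyte markers summed to 86.0, 306 and 642 CPM in HCC 1, 2 and 3, against 59.3 and 60.9 CPM in healthy 1 and 2, and the 7 erythroid markers to 7391, 17083 and 15384 CPM, against 2975 and 2787 CPM.

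The sequences of 10 genes on which the results turn are given here in lower case from the GENCODE M21 transcripts (GRCm38), 5′ to 3′ on the gene's own strand. Capitals mark, in Snord genes, the first TGATG in the first 20 bases (C box) and the last CTGA in the last 20 bases (D box), and in Snora genes the first ANANNA in the middle of the gene (H box) and the ACA near the end. Both boxes were found in 35 of 41 Snord members (85.4%) and 50 of 58 Snord genes under the limit (86.2%), and in 15 of 18 Snora members (83.3%) and 22 of 24 others (91.7%). Members and the rest thus held these letters about equally often, and a match is a description only. The first 5 genes had counts close to those of their host.
Snora31 (chr14:75847905-75848034, plus strand): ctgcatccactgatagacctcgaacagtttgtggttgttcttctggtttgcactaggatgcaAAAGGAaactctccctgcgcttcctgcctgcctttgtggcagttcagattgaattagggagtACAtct
Snora69 (chrX:37082912-37083042, minus strand): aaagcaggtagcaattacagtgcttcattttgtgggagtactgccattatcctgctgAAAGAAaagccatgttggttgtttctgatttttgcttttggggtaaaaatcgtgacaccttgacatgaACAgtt
Snord72 (chr15:5118404-5118484, plus strand): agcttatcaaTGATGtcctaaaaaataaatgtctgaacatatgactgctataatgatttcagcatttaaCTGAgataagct
Snord14e (chr9:40804748-40804837, plus strand): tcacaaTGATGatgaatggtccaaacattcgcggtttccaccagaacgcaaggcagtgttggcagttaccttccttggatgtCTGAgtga
Snora24 (chr3:123507937-123508066, minus strand): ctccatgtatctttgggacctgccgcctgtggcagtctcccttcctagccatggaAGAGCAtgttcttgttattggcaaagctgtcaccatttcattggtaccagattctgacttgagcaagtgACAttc

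The next genes lie in different introns of Rpl13a and are shown because their counts differ with their place in this host. They are given from the one nearest the host's 3′ end to the one nearest its 5′ end.
Snord35a (chr7:45126346-45126435, minus strand): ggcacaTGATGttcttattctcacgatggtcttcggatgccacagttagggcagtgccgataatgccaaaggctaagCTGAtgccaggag
Snord34 (chr7:45126601-45126670, minus strand): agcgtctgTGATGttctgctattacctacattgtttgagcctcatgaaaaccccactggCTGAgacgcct
Snord33 (chr7:45126864-45126947, minus strand): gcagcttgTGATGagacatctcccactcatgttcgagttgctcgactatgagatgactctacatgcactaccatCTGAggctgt
Snord32a (chr7:45127382-45127464, minus strand): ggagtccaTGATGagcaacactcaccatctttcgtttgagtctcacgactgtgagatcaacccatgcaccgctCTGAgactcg

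The last is the gene with the smallest unadjusted p among those lower in HCC than in healthy libraries. Snord104 lies in no annotated gene.
Snord104 (chr11:106500993-106501062, plus strand): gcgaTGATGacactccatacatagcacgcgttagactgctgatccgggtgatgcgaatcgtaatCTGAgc

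The 59 genes together held 2.44, 2.70 and 2.04% of all counts in HCC 1, 2 and 3, against 2.15 and 2.63% in healthy 1 and 2. The summed level was 24408, 27033 and 20399 CPM in the HCC libraries, against 21531 and 26259 CPM in the healthy libraries, and the groups overlapped. In sorted bulk RNA, fewer cells of a type and less RNA per cell cannot be told apart. The ratio of the HCC mean to the healthy mean was 1.00, and it was 0.912 without healthy 1. A count was present in every library for 41 of the 59, and 11 had none in healthy 1.

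A few genes held most of these counts. Snora31, an H/ACA snoRNA in an intron of Tpt1, had 4548, 7434 and 4578 CPM in HCC 1, 2 and 3, against 6178 and 5136 CPM in healthy 1 and 2. Snord35a, a C/D snoRNA in an intron of Rpl13a, had 4611, 4732 and 3272 CPM in the HCC libraries, against 6443 and 4357 CPM in the healthy libraries. For both genes the groups overlapped. Together they made up 37.5, 45.003 and 38.5% of the snoRNA counts in HCC 1, 2 and 3, against 58.6 and 36.2% in healthy 1 and 2, so that healthy 1 was the library most dominated by them. Without this pair the summed level was 15248, 14867 and 12550 CPM in the HCC libraries, against 8910 and 16766 CPM in the healthy libraries. The 10 genes with the highest mean CPM held 80.8 to 86.5% of the snoRNA counts in each library. Per 100 bases of gene, Snord35a had the highest mean level (5203 CPM), followed by Snora31 (4288 CPM) and Snord100 (1746 CPM). Dividing by length is a description only, since the kit is a 3′ one and reads of the host cannot be told apart.

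**Figure D1:**
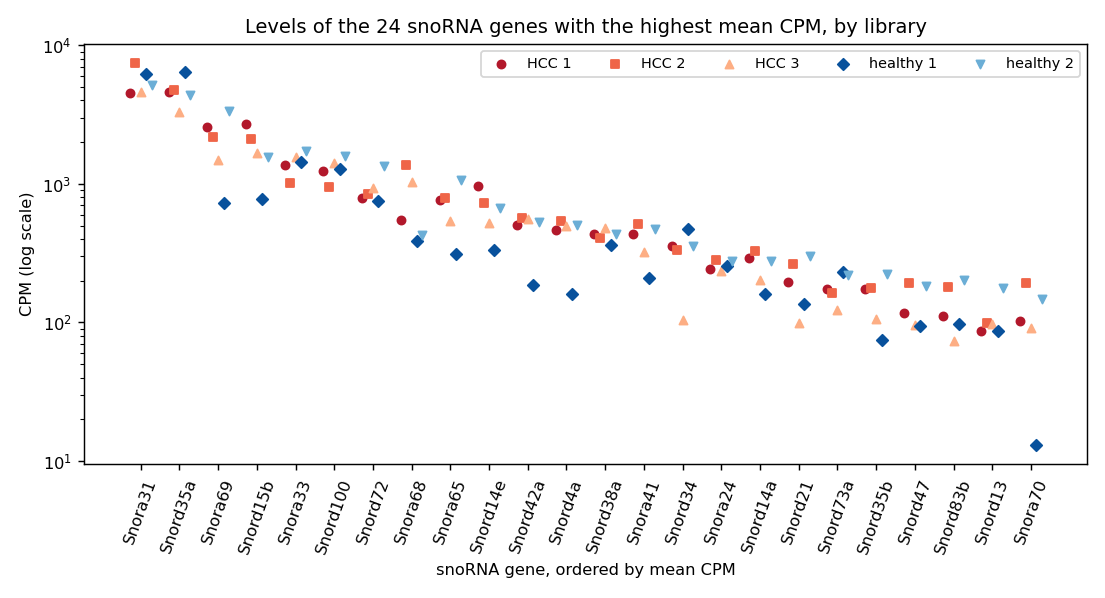
Each point is the CPM (log axis) of 1 snoRNA gene in 1 library, for the 24 genes with the highest mean CPM, with HCC libraries in red shades on the left of each gene and healthy libraries in blue on the right. Healthy 1 is far below the others for Snora69 (726 CPM) and Snora70 (13.0 CPM).

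Below these, libraries of 1 group could differ as much as the groups. Snora69, an H/ACA snoRNA in an intron of Rpl39 on the X chromosome, had 2556, 2193 and 1489 CPM in HCC 1, 2 and 3, against 726 and 3360 CPM in healthy 1 and 2. The 2 healthy libraries thus lay on either side of all HCC libraries. Snora70, in Rpl10 and also on the X chromosome, had 102, 194 and 90.8 CPM in the HCC libraries, against 13.0 and 147 CPM in the healthy libraries. Snora24, the H/ACA snoRNA of Snhg8, which has been studied in mouse models of liver cancer, was among the steadiest, with 253 ± 25.0 CPM in HCC (SD, n = 3) and 267 ± 14.5 CPM in healthy libraries (SD, n = 2). Healthy 1 held the lowest CPM of 24 of the 59 genes (ties counted for the first library listed), and HCC 3 that of 20.

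Of the 59 genes, 55 lay wholly within an annotated gene on the same strand, taken as the host, and these were 42 different hosts. Ribosomal protein genes were the most common hosts, with 29 members in 22 genes and 69.2% of all snoRNA counts. Other protein-coding hosts, such as Tpt1, a translationally controlled growth protein, the elongation factor gene Eef1b2 and the chaperone gene Hspa8, carried 14 members in 11 genes and 27.8% of the counts. Noncoding hosts, among them Gas5, Snhg8, Snhg12 and Zfas1, carried 12 members in 9 genes with 2.25%. The 4 members with no host on their strand were Snord13, Snord104, Snord118 and Snora57, with 0.750% of the counts, and their summed level was 164, 152 and 136 CPM in HCC 1, 2 and 3, against 183 and 257 CPM in healthy 1 and 2.

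Counts of a snoRNA gene and of its host came close to each other in part of the pairs. Over the 5 libraries, Snora31 had 52856 counts and Tpt1 59983, Snord35a had 45038 and Rpl13a 52724, and Snora69 had 19008 and Rpl39 20130. In 12 of 55 pairs the snoRNA count was at least 80% of the host count, from 85.4 to 122%, and the next pair, Snord87 with Snhg6, was at 62.3%. The limit of 80% was set after the values were seen and is used only to describe them. In 8 of these pairs the snoRNA gene had more counts than its host. Snord72, for example, had 8765 counts and Rpl37 7961, and Snord14e had 5960 and Hspa8 4973. The 12 pairs held 63.4% of all snoRNA counts. At the other end, 24 pairs were under 10% and 10 under 1%, such as Snord37 with 13 counts in the elongation factor gene Eef2, which had 32593. The median of the 55 pairs was 14.3%.

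**Figure D2:**
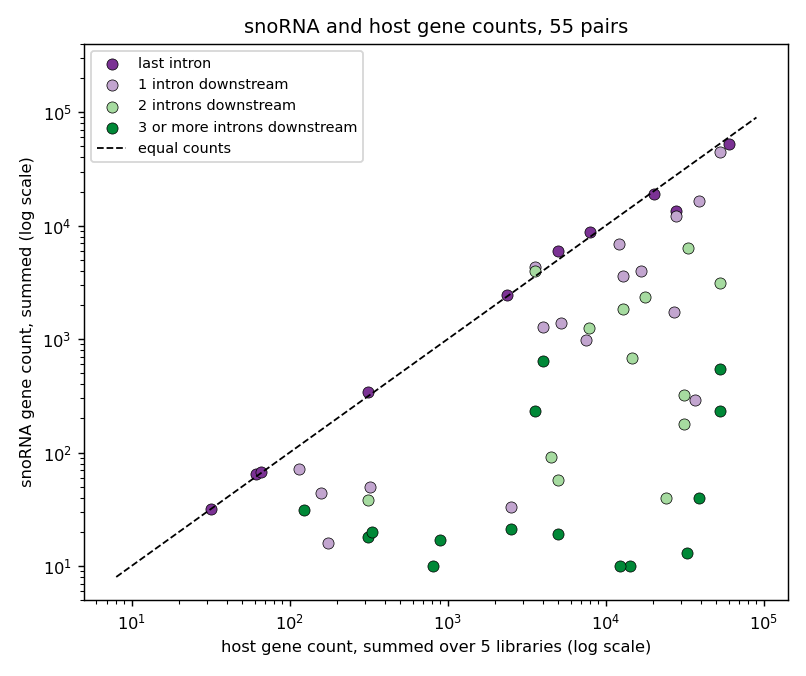
Each point is 1 of 55 pairs, with the summed count of the host gene on the x axis and that of the snoRNA gene on the y axis (both log), coloured by how many introns of the host lie 3′ of the snoRNA. The 10 points of the last intron lie on or near the line of equal counts, apart from Snora33, at 48.3% of Rps12.

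In the near-equal pairs the share was also steady from library to library. Snord72 was at 110, 110 and 111% of Rpl37 in HCC 1, 2 and 3, against 109 and 111% in healthy 1 and 2, while its own level ranged from 747 to 1345 CPM. Snora69 was at 95.8, 95.4 and 93.8% of Rpl39 in the HCC libraries, against 88.6 and 94.7% in the healthy libraries, so that its low level in healthy 1 went with a low level of the host (819 CPM). Of 31 pairs with at least 100 snoRNA counts and a count in every library, the SD of log2 CPM over the 5 libraries had a median of 0.61, and the SD of the log2 ratio to the host a median of 0.20. The ratio varied less than the level in 26 of 31. In the 9 of these at 80% or more the SD of the log2 ratio was at most 0.12 (median 0.08), and it was 0.48 as a median in the other 22. The ratio varied less than the level in all 9 and in 17 of the 22. Snord100, among the 22, was also steady, at 42.6 to 45.2% of Rps12 in HCC and 43.7 to 44.2% in healthy libraries. Others of the 22 had few counts, such as Snora62 with 177, and depth was not separated from closeness to the host count.

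The share went with the place of the snoRNA within its host. Hosts were described by 1 transcript each, the principal one where the annotation marks it. Among all Snora and Snord genes in introns of hosts with at least 1000 summed counts, members or not, the 6 in the last intron were at 48.3 to 120% of the host (median 98.7%). The 14 with 1 intron downstream had a median of 27.5%, the 17 with 2 downstream 1.15%, and the 15 with 3 or more 0.103%. By distance, the 17 with up to 350 exon bases between their intron and the host's end had a median of 31.6%, the 10 beyond that and up to 700 had 3.99%, and the 25 with over 700 had 0.442%. Across these 52 genes Spearman's rho of the share was -0.70 with the number of downstream introns and -0.48 with the exon bases, given as a description since genes of 1 host and 1 library are not independent. Exceptions ran both ways. Snord15b, with 1253 exon bases downstream, was at 42.1% of Rps3, whereas both rows named Snord80, with 170 bases downstream in Gas5, had no count.

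**Figure D3:**
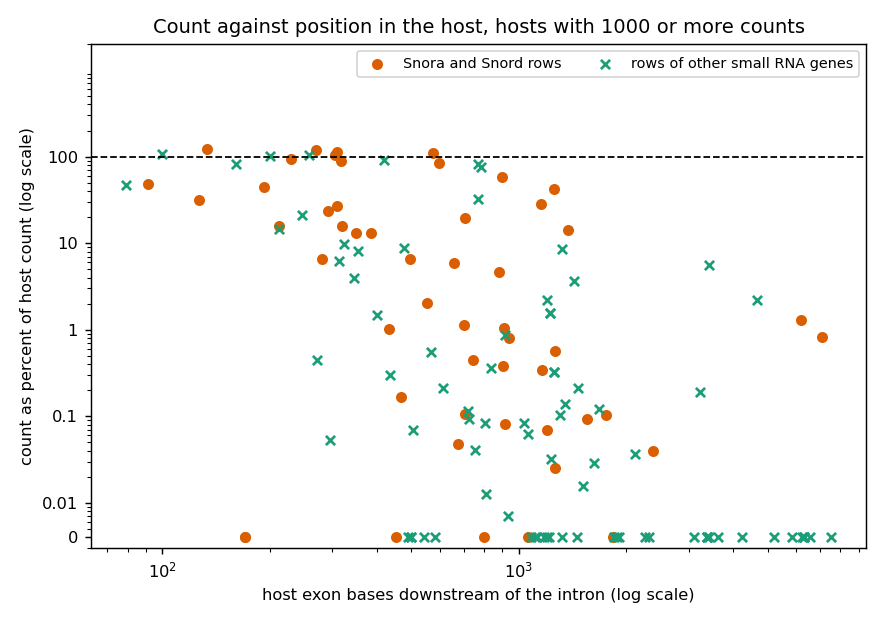
Each point is 1 row inside an intron of a host with at least 1000 summed counts, placed by the host exon bases downstream of that intron (x, log) and by its count as a percent of the host count (y, log, with 0 on the bottom line). Orange circles are the 52 Snora and Snord rows and green crosses are 83 rows of other small RNA genes, and every orange point at 80% or more lies at 598 bases or less.

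Among members that share a host the same order was mostly seen. In Rpl13a, Snord35a had 8474, 8131 and 6164 counts in HCC 1, 2 and 3, against 14331 and 7938 in healthy 1 and 2. Snord34, 1 intron further 5′, had 654, 576 and 196 counts in the HCC libraries, against 1051 and 647 in the healthy libraries. Snord33, the next in 5′ direction, had 63, 47 and 14 counts, against 45 and 64. Snord32a, 2 introns beyond it, broke the order with 89, 177 and 3 counts in the HCC libraries, against 0 and 276 in the healthy libraries, and was the most uneven of the 4. These snoRNAs of Rpl13a are known in mouse and hamster cells for a role in the response to lipid stress. In 7 of the 8 hosts with at least 2 members the member nearest the 3′ end had the highest summed count and each further one a lower count, Rpl13a being the exception. Within single libraries this order held in all 5 for 4 hosts, in 4 for 2410006H16Rik, in 3 for Hspa8 and for Ncl and in 2 for Rpl13a. In Hspa8 and 2410006H16Rik it failed by ties between the 5′ members. Rows that are not members were left out of this order, and in Gas5 they broke it. Both Snord80 rows, with 2 introns downstream, had 0 counts, below the 635 of Snord78 with 3 downstream. The row Gm23212, with 4 introns downstream, had 862.

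**Figure D4:**
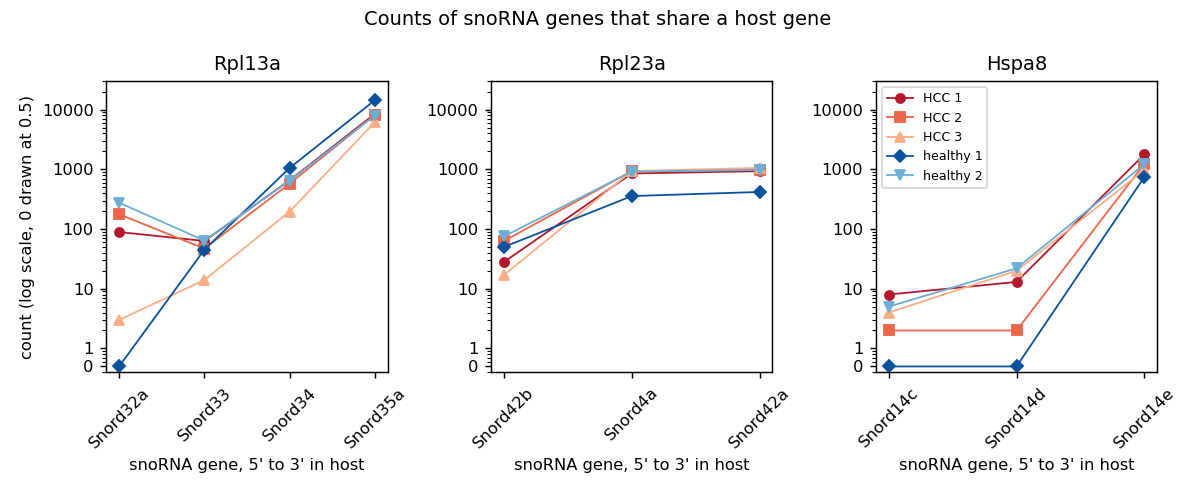
Counts (log axis, 0 drawn at 0.5) of the members in Rpl13a, Rpl23a and Hspa8, are ordered 5′ to 3′ along the host, with 1 line per library. In all 5 libraries the count is highest at the 3′ end, as for Snord14e in Hspa8 with 746 to 1782 counts against 2 to 22, or none, for Snord14d.

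The counts in Hspa8 also differed widely. Snord14e, in its last intron, had 1782, 1240 and 975 counts in HCC 1, 2 and 3, against 746 and 1217 in healthy 1 and 2. Snord14d and Snord14c, with 2 and 3 introns downstream, summed to 57 and 19 counts over all libraries. These copies of a C/D snoRNA that takes part in processing of small-subunit ribosomal RNA share 41.1% of their 31-base words with each other, so their rows are not fully separate, whereas no such word of Snord14e is shared. In Rpl23a, Snord42a and Snord4a lie in neighbouring introns and had nearly the same counts, 930 and 850 in HCC 1, 978 and 930 in HCC 2, 1056 and 931 in HCC 3, 417 and 356 in healthy 1 and 974 and 915 in healthy 2. In Rps12, Snora33 and Snord100, of different families, likewise had 13512 and 12292 counts in all.

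Rows of other small RNA genes in introns were also highest in the last intron. Beyond it they showed no graded fall by number of introns, but their share fell with distance. The 83 such rows in hosts with at least 1000 counts include miRNA genes and snoRNA genes without a Snora or Snord name. The 14 in a last intron had a median of 61.8% of the host, 5 of them at 0. The median was 0.0408% for the 7 with 1 intron downstream, 0.210% for the 15 with 2, and 0.0285% for the 47 with 3 or more. By distance, the 12 with up to 350 exon bases downstream had a median of 18.0%. The 13 beyond that and up to 700 had 0.211%, and the 58 with over 700 had 0.0142%. The row of the miRNA gene Mir7079, in the last intron of Rpl13, had 31602 counts and Rpl13 had 31384. Mir7046 had 2132 and its host Rabac1 had 2055. In 1 intron of Gas5, the row named Mir5117 had 105, 64 and 125 counts in HCC 1, 2 and 3, against 133 and 162 in healthy 1 and 2, beside 114, 76 and 137, against 138 and 170, for the member Snord78. Rows near the host count thus included genes not named Snora or Snord.

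Annotated exons covered part of the snoRNA genes. For 31 of 59 members an annotated exon of another gene on the same strand, in most cases a retained-intron transcript of the host, overlapped the snoRNA. Among the 12 near-equal pairs 4 had such an exon and 8 had none, including Snora31, Snord35a, Snora69 and Snord72. The longest run of A in the gene was 6 or more in 3 of 41 Snord members, in 1 of 58 other Snord genes and in none of the 18 Snora members. From counts alone, reads of the snoRNA itself, of an unspliced or polyadenylated host intron, and of the spliced host counted also for a gene inside its intron cannot be told apart.

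The comparison of HCC with healthy livers asked how the cells' transcripts differ in tumour-bearing mice. No snoRNA gene passed. Of the 59 members 46 passed the filter on low counts, and edgeR called 0 of them at an adjusted p under 0.05 (smallest adjusted p = 0.9998), against 0% of all 8468 genes tested. The DESeq2 Wald test also called 0 members, against 0.12% of all genes, and limma-voom 0, against 0%. With no filter on low counts 0 of 59 were called, against 0.318% of genes, and 0 of 46 when replicate numbers were a block, against 0.0354%. Without healthy 2, Snora70 alone was called among 51 members tested, against 2.01% of genes. At an unadjusted p under 0.05 in edgeR there were 2 of 46 members, close to the 3.63% of all genes. They were 1 higher in HCC, against 2.15% of genes, and 1 lower, against 1.48%. In CPM, the 3 HCC libraries exceeded healthy 1 and 2 for 2 of the 46, where 12.8% of all genes did, and below both for 2, where 5.46% did. The log2 fold change, HCC over healthy, was positive in 17 and negative in 29 (median -0.13), while 50.3% of all genes had a positive one (median 0.00). Scaled by library totals only, the split was 25 positive and 21 negative, with a median of 0.02 for members and 0.16 for all genes. Members were thus 0.13 to 0.14 below the median of all genes under both scalings. A change of scaling moves all genes nearly alike, so the equal gap is not separate support. The gap was less than the pooled SD of 0.45 that the members' median log2 CPM had between libraries of a group. The members' median rested on healthy 2: without it, 29 members had a positive fold change and the median was 0.47, and without HCC 1 only 10 were positive. The median over all genes is not given here for these 2 fits, so a shift of all genes was not separated. Without healthy 1 the members' median was -0.24, against 0.06 over all genes.

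Snora68, an H/ACA snoRNA, was the member with the smallest p. It had 552, 1372 and 1037 CPM in HCC 1, 2 and 3, against 389 and 425 CPM in healthy 1 and 2. The groups did not overlap, and HCC 1 was the nearest to the healthy libraries. The log2 fold change was 1.08 (SE 0.43, edgeR unadjusted p = 0.0297, adjusted p = 0.9998). Without healthy 1 the log2 fold change of Snora68 was 1.17.

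Snord15b, a C/D snoRNA of Rps3, was the other member above in all HCC libraries among those tested. It had 2722, 2122 and 1674 CPM in HCC 1, 2 and 3, against 777 and 1554 CPM in healthy 1 and 2. HCC 3 and healthy 2 were close. The log2 fold change was 0.76 (SE 0.38), that of Rps3 was 0.63 (SE 0.37), and for Snord15b it was 0.46 without healthy 1. Both genes had adjusted p = 0.9998 in edgeR.

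The 2 tested members lower in every HCC library were Snord104 and Snord73a. Snord104, a C/D snoRNA that lies 1085 bases from the nearest annotated gene, Tex2 on the other strand, had 34.8, 32.6 and 24.9 CPM in HCC 1, 2 and 3, against 47.7 and 60.4 CPM in healthy 1 and 2, on counts of 47 to 110. The log2 fold change was -0.99 (SE 0.41, edgeR unadjusted p = 0.0381, adjusted p = 0.9998), and -1.001 without healthy 1. Snord73a, in Rps3a1, had 175, 162 and 124 CPM in the HCC libraries, against 233 and 218 CPM in the healthy libraries (log2 fold change -0.75, SE 0.35). Its share of the host count was 6.98, 6.26 and 4.25% in the HCC libraries, against 7.25 and 7.57% in the healthy libraries, and the fold change of Rps3a1 was smaller (-0.39, SE 0.34).

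The other members without a host were uneven. Snord13, which takes part in acetylation of small-subunit ribosomal RNA, had 86.5, 98.3 and 97.7 CPM in HCC 1, 2 and 3, against 87.2 and 178 CPM in healthy 1 and 2, so that healthy 2 alone was high. Snord118, needed for processing of large-subunit ribosomal RNA, had 13.1, 5.82 and 9.55 CPM in the HCC libraries, against 26.1 and 8.78 CPM in the healthy libraries. Its log2 fold change was -1.13 with all libraries and 0.10 without healthy 1. It lies 134 bases from Tmem107 on the same strand.

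Fold changes of snoRNA genes were set beside those of their hosts. In 42 pairs both genes were tested. In the 11 pairs at 80% or more of the host count the log2 fold changes differed by 0.03 as a median and 0.12 at most, with the same sign in 11 of 11. In the other 31 they differed by 0.20 as a median and 1.55 at most, with the same sign in 24. Whether 1 read could count in both rows of a pair is not given in the sources used here, so the fold changes of a pair are not independent measurements. The share of the host count was higher in all HCC than in both healthy libraries for 4 of the 42 members and lower for 2, a measure that has no background over all genes. These were Snord15b, Snord42a, Snord4a and Snord99 (higher) and Snord73a and Snord42b (lower). Snord99 had only 65 counts over all libraries and its host Snhg12 61. Snord42a, Snord4a and Snord42b share the host Rpl23a and are not separate cases.

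**Figure D5:**
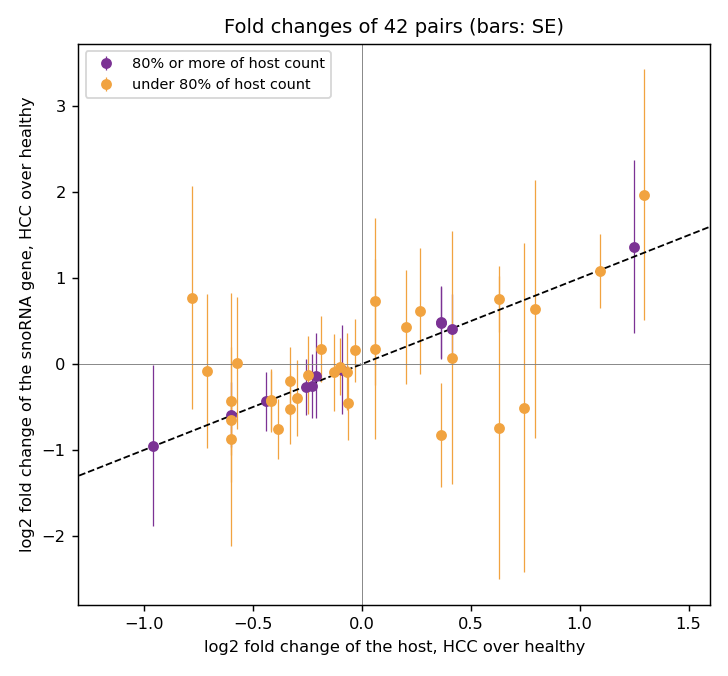
Each point is 1 of 42 pairs, with the log2 fold change (HCC over healthy, edgeR) of the host on the x axis and of the snoRNA gene on the y axis, bars showing the SE of the snoRNA value. The 11 pairs at 80% or more of the host count (purple) lie within 0.12 of the line of equal change, while the others scatter by up to 1.55.

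HCC 3 and healthy 1 were most often the lowest in the share of the host. HCC 3 had the lowest share of the host in 16 of the 42 tested members with a host, and healthy 1 in 19. In the 31 tested pairs under 80% the median share was 13.5, 15.2 and 8.48% in HCC 1, 2 and 3, against 10.8 and 16.7% in healthy 1 and 2. Snord34, for example, had 356, 335 and 104 CPM in the HCC libraries, against 473 and 355 CPM in the healthy libraries. HCC 3 held the highest hepatocyte marker sum (642 CPM) and healthy 1 the lowest (59.3 CPM). The part of other cells in these levels was not tested.

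Of the genes of proteins that build and mature snoRNA particles, edgeR called 0 in each direction in every list at an adjusted p under 0.05. Among the box C/D core proteins 4 of 4 were tested, 2 positive and 2 negative, with a median log2 fold change of -0.12. Snu13, which binds the C/D fold, had 107 ± 6.06 CPM in HCC (SD, n = 3) and 100.1 ± 87.5 CPM in healthy libraries (SD, n = 2), and the methyltransferase gene Fbl had 50.02 ± 13.4 CPM in HCC and 52.9 ± 3.60 CPM in healthy libraries. Of the H/ACA core proteins 4 of 4 were tested, 2 in each direction (median -0.26). Nop10 had 117 ± 8.35 CPM in HCC and 94.0 ± 50.3 CPM in healthy libraries, and Nhp2 had 28.8 ± 14.4 CPM in HCC and 39.4 ± 30.1 CPM in healthy libraries.

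Assembly factors had 9 of 11 tested, 3 positive and 6 negative (median -0.41). Pih1d1 and Znhit6, factors of C/D assembly, had 27.3 ± 3.26 and 24.4 ± 4.26 CPM in the HCC group and, in the same order, 30.5 ± 16.0 and 29.7 ± 10.2 CPM in healthy libraries. Maturation and cap genes had 7 of 9 tested, 4 positive and 3 negative (median 0.06). Phax, an export adaptor that also carries snoRNAs, had 37.5 ± 11.5 CPM in HCC and 32.0 ± 33.2 CPM in healthy libraries, and the cap-binding gene Ncbp1 had 34.2 ± 2.98 CPM in HCC and 28.6 ± 1.57 CPM in healthy libraries.

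The list of noncoding hosts had 8 of 18 tested, 5 positive and 3 negative (median 0.21). Of the tested genes only Rnu12 (log2 fold change 0.35) held no member, and it is counted among the positive ones. Gas5, a growth-arrest transcript that carries many C/D snoRNAs, had 383, 507 and 337 CPM in HCC 1, 2 and 3, against 358 and 558 CPM in healthy 1 and 2. Snhg8 had 246 ± 18.5 CPM in HCC (SD, n = 3) and 258 ± 12.6 CPM in healthy libraries (SD, n = 2). Zfas1, the host of Snord12, had 49.0, 58.2 and 35.6 CPM in the HCC libraries, against 18.0 and 15.4 CPM in the healthy libraries, with no overlap (log2 fold change 1.30, SE 0.48, edgeR unadjusted p = 0.0218, adjusted p = 0.9998). Over the 5 lists, 3 of 32 genes tested were above both healthy libraries in all HCC libraries (Nop58, Ncbp1 and Zfas1), where 12.8% of all genes were, and 3 were below (Naf1, Ruvbl1 and Tgs1), where 5.46% were. Snord12 itself rested on 25 counts at most in any library and had none in healthy 1.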

How the data were processed

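The values are raw counts per Ensembl gene, whole numbers that the authors deposited in 1 table per library without normalization. Per the submitters' processing notes, the tools, with no stated roles, were limma, edgeR, DESeq2, DESeq, Bowtie2, HISAT2 and bcl2fastq, with mm10. The labels' protocols name a 3′ mRNA kit (QuantSeq) for Ion Torrent. The counting program, annotation and strand setting are not given in the sources used here, and 1 read may thus stand in several rows. Counts were not divided by gene length unless stated.

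GENCODE M21 (GRCm38, the assembly of mm10) gave symbols to 55104 of 55364 gene IDs, as well as hosts, introns and sequences. Members and lists were chosen with earlier results of these data known. A host is the gene on the same strand that contains the snoRNA, protein-coding before noncoding, then the shortest. Named are the 15 members with the highest mean CPM, up to 6 in each direction with the smallest p, members of the 3 hosts with most members (a tie broken by count), hosts, and the 2 highest genes of each list. One host is not reported here. Other genes named with values, such as Snora24, Snora70, Snord37, Snord78, Snord80 and Snord87, were chosen after their values were seen, as was the choice of sequences printed.

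The test was the edgeR 4.0.16 quasi-likelihood F test in R 4.3.3 (filterByExpr, TMM, HCC against healthy, no block), with Benjamini-Hochberg adjustment over all genes and a threshold of 0.05, and was checked on simulated counts. The p values measure the spread between these libraries. Alternatives were DESeq2 1.42.0, limma-voom (limma 3.58.1), other scaling, no filter, the replicate number as a block, and leaving out each library.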

Additional observations from a re-analysis of the deposited data

How the results depend on the processing

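The count of snoRNA genes called in edgeR was 0 under every alternative run except without healthy 2, where 1 of 51 tested, Snora70, passed, healthy 1 standing alone and being taken to vary like the HCC libraries. Leaving out 1 library each gave 0 to 1 members called, 0 to 196 genes called, 10 to 29 members with a positive log2 fold change, and medians from -0.25 (without HCC 1) to 0.47 (without healthy 2). Over all genes, 0 were called as reported, 53 without the low-count filter, 8 by the DESeq2 Wald test and 3 with the replicate block. The replicate block, in which HCC 3 has no partner and adds nothing, gave 26 members with a positive and 20 with a negative log2 fold change, against 17 and 29 without it, with 0 called. With HCC 2 and HCC 3 summed as 1 sample, 0 genes were called. Libraries of the same number are not stated to share a litter, day or batch, and whether they do was not tested (correlation of deviations 0.00 and 0.12). The median share of the host count was 25.3% over members with at least 100 counts, against 14.3% over all. The cause of these changes was not tested. Of 296 alternative values for the 25 named members tested, none passed and 24 changed sign. With 0 members called as reported, no called direction could turn. Snora70 is not among the 25. The ratio of summed CPM was 0.884 after TMM scaling and 0.912 to 1.11 with 1 library left out. Depth limits members under about 10 counts per library, where a count of 0 and 3 cannot be told apart.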
